A study of Homo sapiens with 4 samples.

Results

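The 45 genes described here act in homologous recombination, the Fanconi anemia pathway, end joining, mismatch repair and the kinase signalling that a DNA lesion sets off. They were chosen by name, and all 45 were found by Ensembl identifier among the 64252 genes of the count table. The libraries are labelled NB4, a human promyelocytic leukemia cell line, and hold RNA of cells kept for 24 h with 8 μM dBET1 (2 libraries) or with its solvent DMSO (2 libraries). dBET1 joins a ligand of the BET bromodomain proteins to a ligand of cereblon, an adaptor of an E3 ubiquitin ligase that marks proteins for degradation. The labels give no difference between the groups but the treatment, both come from a single cell line, and nothing in them says whether the 2 libraries of a group came from separate cultures, so the p-values below measure the spread between these libraries alone. The libraries held 28019956 to 34685645 counts, and every one of the 45 genes passed the filter on low counts, with the fewest counts for RAD51B (84 to 142 per library).

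The label of the cell line was set against marker genes. Of 8 promyelocyte markers, ELANE and CTSG had 0 counts in every library, MPO had 0 counts in both DMSO libraries and 22 and 10 with dBET1, and the 8 genes summed to 13.3 to 15.2 CPM, most of it from the myeloid surface marker CD33 (323 to 335 counts per library). CPM are counts per 1000000 counts of the normalized library size. The 8 erythroid markers (among them HBG2, HBE1 and HBG1) summed to 4905 and 5918 CPM with DMSO and to 3193 and 3151 CPM with dBET1. The lymphoid markers, 5 genes, summed to 12.9 to 33.9 CPM, most of it from CD3D. The granule genes ELANE, CTSG, MPO, AZU1 and PRTN3 were thus at 0 to 23 counts per library. CD33 (9.9 to 11.9 CPM) and CSF3R (45 to 62 counts, 1.5 to 2.1 CPM) were detected in every library at low levels. These markers thus do not bear out the promyelocyte type given by the label, and the erythroid markers were the most abundant of these lists. The identity of the cells was not examined further. The part of the lower erythroid level in the results below was not tested.

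A double-strand break is repaired either by end joining, in which the Ku dimer and the kinase DNA-PK hold the ends together for ligation, or by homologous recombination, in which the ends are first cut back and the sister chromatid then serves as template. Recombination acts mostly in cells that have replicated their DNA, and many of its genes are transcribed mainly at the entry into S phase under E2F transcription factors. The Fanconi proteins recognize and unhook crosslinks between the DNA strands and pass the resulting break on to recombination. ATM and ATR are the kinases that read breaks and single-stranded DNA and signal to the checkpoint kinases CHEK2 and CHEK1.

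After dBET1, 15 of the 45 genes fell, 8 rose and 22 did not pass the test. A gene counts as fallen or risen by edgeR's quasi-likelihood test when its p, adjusted by Benjamini-Hochberg over all 17971 genes tested, is under 0.05. Of all genes tested 55.6% passed, 27.6% as fallen and 28% as risen, so the share of the 45 that fell (33.3%) was a little above that background and the share that rose (17.8%) below it. Among the 4490 tested genes with an abundance between the lower and upper quartile of the 45, 45.1% fell and 21.4% rose, and their median log2 fold change of -0.21 was the same as that of the 45 genes (-0.21). The shares by role below are set against all genes tested and not against genes of like abundance. The largest falls were in the abundant end-joining genes XRCC5, PARP1 and XRCC6, and the largest rises in the kinase gene ATM and the recombination mediator gene BRCA2. XRCC5 was the 1 gene that fell, and BRCA2 and ATM the 2 that rose, by more than 1 on the log2 scale, a limit that 8.54% of all genes passed downwards and 16.9% upwards. The libraries of the 2 groups did not overlap for 33 of the 45 genes (23 lower and 10 higher with dBET1), against 79.3% of all genes tested (37.4% lower and 41.9% higher). In bulk RNA, fewer cells of a type or cycle phase and less RNA per cell cannot be told apart.

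The direction of small changes depended on the scale. When libraries were scaled to total counts instead of TMM factors, the median log2 fold change over all tested genes shifted from 0.05 to 0.26, and 10 of the 45 genes fell and 9 rose. On that scale 11 genes that had passed the test on neither scale turned from a negative to a positive sign (BRCA1, PALB2, RAD51D, RBBP8, RAD50, FANCG, ATRIP, CHEK1, CLSPN, POLQ and PMS2). Of the 23 calls, 15 were kept under all 11 alternative settings of the analysis: the falls of RAD51C, XRCC2, RAD54L, NBN, EXO1, CHEK2, XRCC5, XRCC6, PRKDC and PARP1 and the rises of BRCA2, MRE11, ATM, ATR and TP53BP1.

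**Figure D1:**
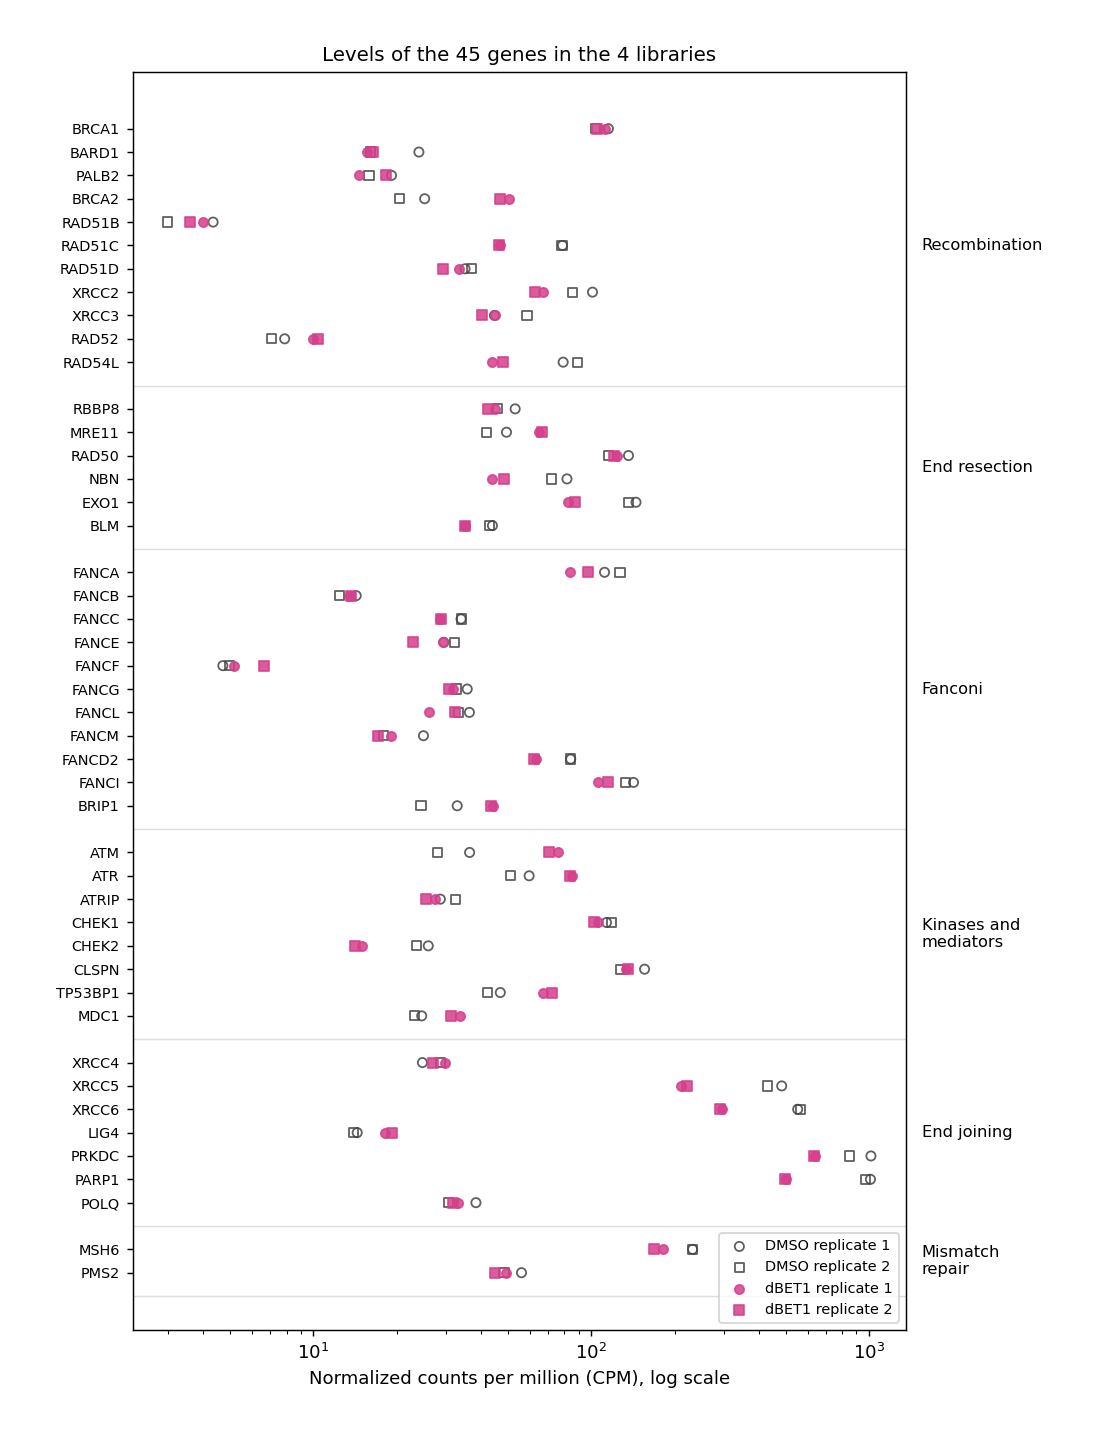
Normalized CPM of each of the 45 genes (log axis) in the 2 DMSO libraries (open symbols) and the 2 dBET1 libraries (filled symbols), in blocks by role, with circles for replicate 1 and squares for replicate 2. For XRCC5, XRCC6, PRKDC and PARP1 both dBET1 libraries lie to the left of both DMSO libraries, while for ATM and BRCA2 they lie to the right.

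**Figure D2:**
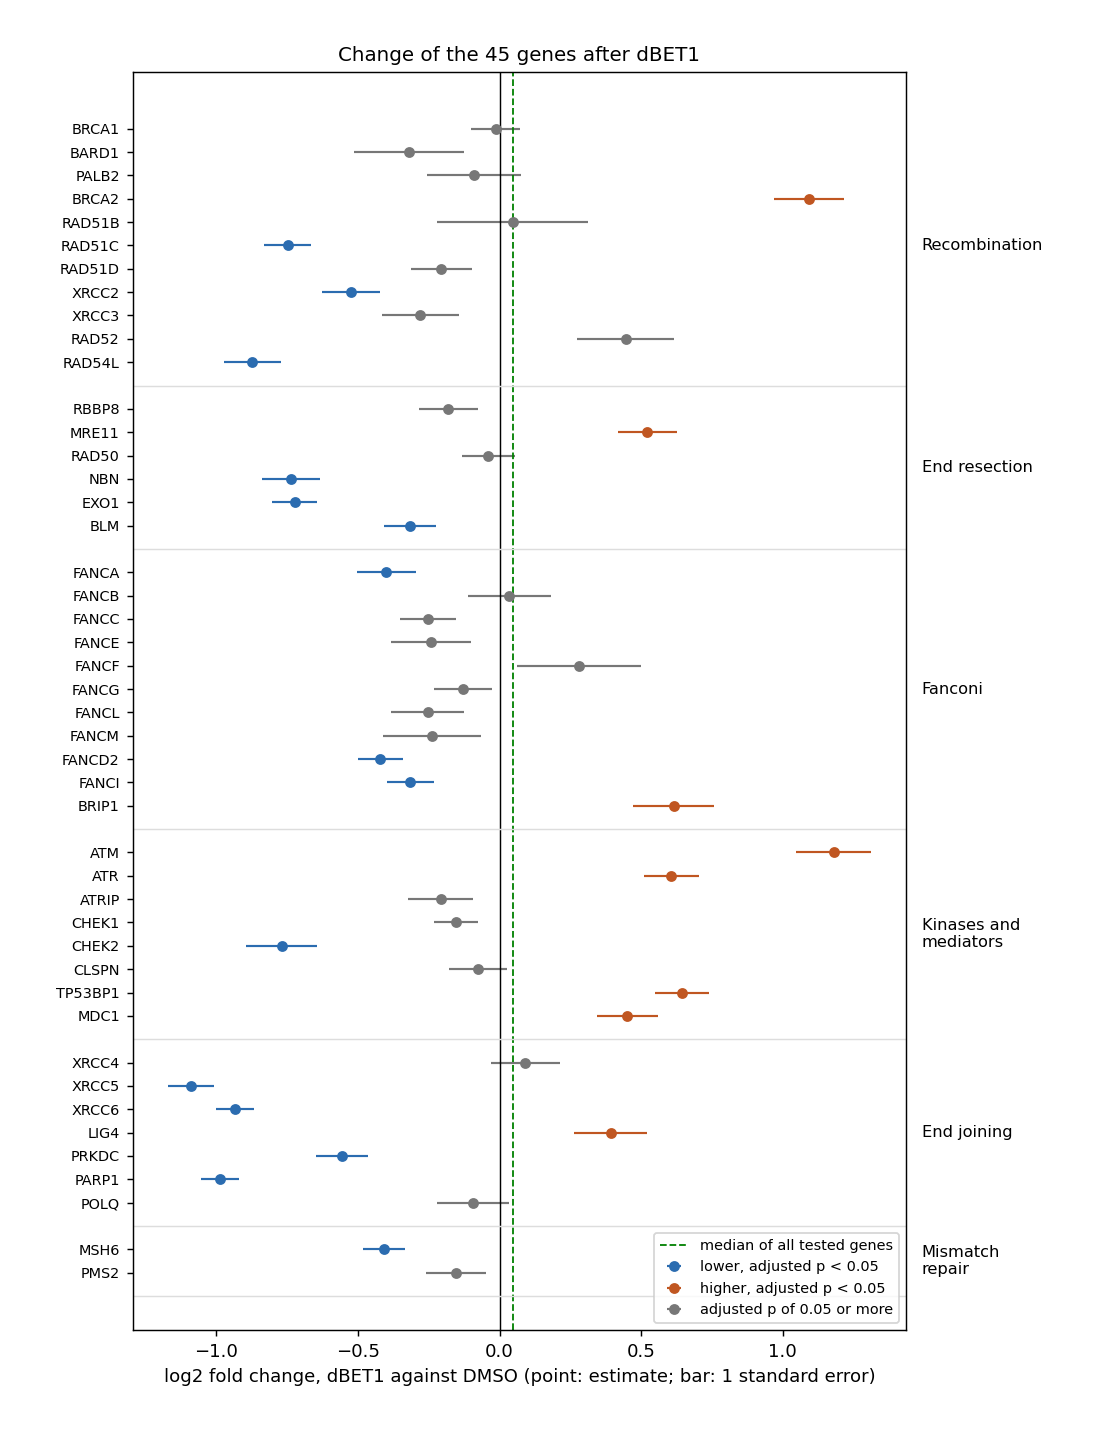
log2 fold change after dBET1 (x axis) with 1 standard error for each gene, from edgeR. Blue points fell and orange points rose at an adjusted p under 0.05, and the dashed line is the median of all tested genes. The end-joining block holds the largest falls and the kinase block 4 of the 8 rises, and 11 of the grey points left of 0 lie right of it when libraries are scaled to total counts.

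Promoters were compared as a property that had no part in choosing the genes. RefSeq promoters on GRCh38.p14 (250 bases before to 50 bases after a start) were held here for 41 of the 45 genes, with 62 starts in all. The E2F core, searched on both strands as TTGGCGC or with the forms TTCGCGC and also TTCCCGC, was present in a promoter of 9 of the 11 genes that fell and had a promoter entry (81.8%), of 2 of the 8 that rose (25%) and of 12 of the 22 that did not pass the test (54.5%). Of all 41 genes with a promoter entry, 23 held it (56.1%), so much of the difference from other genes was shared by the whole set. It was present for 13.1% of all 27305 genes in the table (11% of its 35116 promoters) and for 20.8% of the tested genes. Among tested genes it was present for 24.2% of those that fell and 18.3% of those that rose. The CCAAT box (CCAAT on both strands, whose reverse form ATTGG can overlap TTGGCGC) was found for 6 of the 11 genes that fell and 6 of the 8 that rose, against 42.6% of tested genes. The CHR element (TTTGAA), which is bound by the DREAM complex of late cell cycle genes, was found for 0 of the 11 genes that fell and 3 of the 8 that rose, against 13.5% of tested genes. The E-box bound by MYC (CACGTG) was in 0 of the 11 and in 1 of the 8, against 12.5%. The NRF1 core (GCATGCG) was in 2 of the 11 and 1 of the 8, against 7.78%. These shares are descriptions of letters in a fixed window, genes with several starts have more chances of a match, and no test was run on them.

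**Figure D3:**
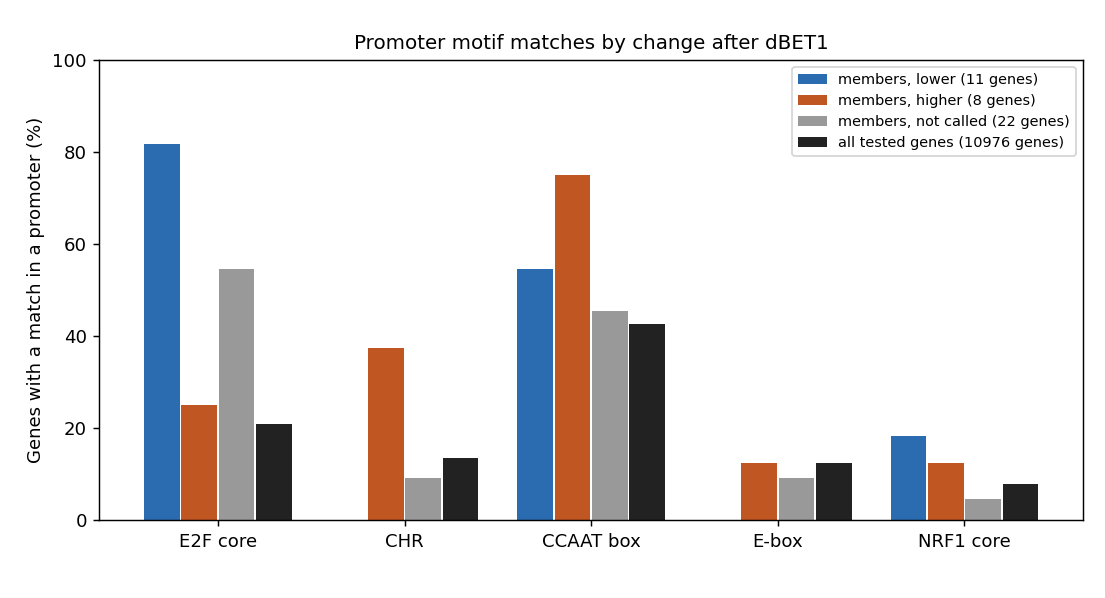
Share of genes with at least 1 match to each motif in a RefSeq promoter, for the genes of the set that fell, rose or did not pass the test and for all tested genes. The E2F core bar is highest for the genes that fell (81.8%) and lowest for all tested genes (20.8%).

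The E2F core matches of the genes that fell are shown because this motif differed most in share between the genes that fell and all tested genes. For each gene only the match nearest to a start is given, with up to 11 bases on each side. It is read along the gene's own strand of GRCh38.p14, with the E2F core in capitals.
PARP1 (chr1:226408094-226408122, reverse strand): ttccgtgggcgTTCCCGCggccaggcatc
XRCC6 (chr22:41621326-41621344, forward strand): gtcgcttccctGCGCCAAa
RAD54L (chr1:46247628-46247656, forward strand): gcgcagcactaTTCCCGCctcttccttgg
EXO1 (chr1:241848198-241848226, forward strand): aaggtcagcctTTCGCGCgctgtgtaggc
XRCC2 (chr7:152676103-152676131, reverse strand): tggcgttggtgGCGGGAAagttgagtctc
FANCD2 (chr3:10026424-10026452, forward strand): cgtcgggcctgGCGGGAAagtcgaaaact
FANCA (chr16:89816609-89816637, reverse strand): cggggctgtagGCGCCAAggccatgtccg
MSH6 (chr2:47783138-47783166, forward strand): tccccccagatTTCCCGCcagcaggagcc
BLM (chr15:90717338-90717366, forward strand): gcaagcttccgGCGGGAAgtgagccaggg
BRIP1 and MDC1, which rose, held the core too.
BRIP1 (chr17:61863509-61863537, reverse strand): gggggcgggagGCGGGAAttcgtctcggg
MDC1 (chr6:30717461-30717489, reverse strand): gcattattctgTTGGCGCacggcggcctt
The centre of the match lay 15 bases before the start in PARP1 and 46 before it in RAD54L. It lay at base 2 of the transcript in FANCD2, 7 in BLM, 8 in MSH6, 9 in EXO1, 25 in both FANCA and XRCC2 and 46 in XRCC6. In BRIP1 it lay at base 6 and in MDC1 194 bases before the start. The MDC1 match lies inside TUBB (30717435 to 30725538, forward strand), a gene on the opposite strand that fell and is described below. A match within 10 bases of the start was thus present in BLM, EXO1, FANCD2 and MSH6, which fell, and in BRIP1, which rose. Since the nearest match was taken, closeness to a start is partly set by that choice. BLM and MSH6 each held 3 matches to choose from. Positions in the genes that did not pass the test are not given.

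The stretches before the starts of ATM and MRE11, which rose, are given as examples, cut where an annotated exon begins. Neither held an E2F core, and the capitals mark CCAAT boxes, written ATTGG where they lie on the other strand. The 2 genes do not stand for all that rose: the promoters of BRCA2 and ATR held neither motif. A CCAAT box was also found for BLM, CHEK2, FANCA, MSH6, RAD54L and XRCC6, which fell, and is not capitalised in the windows above.
ATM (chr11:108222817-108223043, forward strand): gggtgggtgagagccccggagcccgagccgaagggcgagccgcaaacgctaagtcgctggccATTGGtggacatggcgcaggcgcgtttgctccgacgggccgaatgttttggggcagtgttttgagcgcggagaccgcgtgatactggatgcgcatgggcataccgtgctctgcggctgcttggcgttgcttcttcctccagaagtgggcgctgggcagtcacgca
MRE11 (chr11:94493886-94493978, reverse strand): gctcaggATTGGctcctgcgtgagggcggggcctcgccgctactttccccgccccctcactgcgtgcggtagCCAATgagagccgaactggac
The ATM stretch ends 24 bases before the start and holds 1 CCAAT box, and the MRE11 stretch ends 42 bases before it and holds 2 in opposite orientations.

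End joining held the most abundant of the 45 genes and the largest falls. Of its 7 genes 4 fell, 1 rose and 2 did not pass the test, with a median log2 fold change of -0.56. The shares that fell and rose were 57.1% and 14.3%, against 27.6% and 28% of all genes tested. XRCC6 encodes Ku70 and XRCC5 encodes Ku80, the subunits of the ring that slides onto a broken end. XRCC6 (chromosome 22, 41621163 to 41664048, forward strand of hg38) stood at 553 and 566 CPM with DMSO and 295 and 291 CPM with dBET1. XRCC5 (chromosome 2, 216107464 to 216206303, forward strand) stood at 484 and 431 CPM with DMSO and 209.7 and 220.5 CPM with dBET1. In both genes the dBET1 libraries were close to each other and lay well below the DMSO libraries. XRCC6 fell from a mean ± SD of 559 ± 8.86 CPM to 293 ± 3.17 CPM over 2 libraries each, a ratio of 0.524 (log2 fold change -0.93, standard error 0.067, edgeR adjusted p = 3.18e-05). XRCC5 fell from a mean ± SD of 458 ± 38 CPM to 215 ± 7.62 CPM over 2 libraries each, a ratio of 0.470 (log2 fold change -1.09, standard error 0.082, edgeR adjusted p = 3.79e-05).

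PRKDC encodes the catalytic subunit that joins Ku to form DNA-PK. Its level was 1015 and 850.1 CPM with DMSO and 638 and 631 CPM with dBET1, so that both dBET1 libraries lay below the DMSO libraries, which differed from each other by more. PRKDC fell from a mean ± SD of 932 ± 116 CPM to 634 ± 4.96 CPM over 2 libraries each (log2 fold change -0.56, standard error 0.092, edgeR adjusted p = 0.00156). PARP1 (chromosome 1, 226360210 to 226408154, reverse strand), whose product marks breaks with poly(ADP-ribose) and takes part in single-strand break repair and alternative end joining, reached 1011 and 970.0 CPM with DMSO and 504 and 496 CPM with dBET1. It fell from a mean ± SD of 991 ± 29.1 CPM to 499.7 ± 5.37 CPM over 2 libraries each, to 0.504 of the DMSO level (log2 fold change -0.99, standard error 0.067, edgeR adjusted p = 2.64e-05). XRCC5, XRCC6, PRKDC and PARP1 together made up 55.3% of the summed CPM of the 45 genes with DMSO and 43.5% with dBET1.

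LIG4, the ligase that seals the joined ends, stood at 14.4 and 13.9 CPM with DMSO and 18.1 and 19.1 CPM with dBET1 and rose (log2 fold change 0.39, standard error 0.13, edgeR adjusted p = 0.0337). This call was lost in 6 of the 11 alternatives, with DESeq2 (adjusted p = 0.135), without a count filter (edgeR adjusted p = 0.0963) and without any 1 of the 4 libraries (edgeR adjusted p of 0.0523 to 0.241). XRCC4, the scaffold that holds LIG4, had overlapping groups (24.7 and 28.6 CPM with DMSO and 29.9 and 26.8 CPM with dBET1; edgeR adjusted p = 0.554). POLQ, the polymerase of microhomology-mediated joining, also overlapped, at 38.4 and 30.7 CPM with DMSO and 33 and 31.8 CPM with dBET1 (log2 fold change -0.10, edgeR adjusted p = 0.548), and fell without DMSO replicate 2 (-0.28, edgeR adjusted p = 0.0334).

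Among the damage kinases and their mediators more genes rose than fell. Of 8 genes 4 rose (ATM, ATR, TP53BP1 and MDC1), 1 fell (CHEK2) and 3 did not pass the test, and the median log2 fold change was 0.19. The shares that rose and fell were 50% and 12.5%, against 28% and 27.6% of all genes tested. Among 25 other signalling genes, described below, 7 rose and 9 fell. ATM (chromosome 11, 108223044 to 108369102, forward strand), the kinase recruited to double-strand breaks, stood at 36.5 and 28 CPM with DMSO and 75.8 and 70.3 CPM with dBET1. Both dBET1 libraries lay far above the DMSO libraries, a ratio of 2.27 (log2 fold change 1.18, standard error 0.132, edgeR adjusted p = 0.000221), the largest rise among the 45 genes. ATR (chromosome 3, 142449007 to 142578733, reverse strand), the kinase for single-stranded DNA at stalled forks, stood at 59.7 and 51.4 CPM with DMSO and 85.2 and 84 CPM with dBET1 and rose (log2 fold change 0.61, standard error 0.097, edgeR adjusted p = 0.00136).

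ATRIP, the obligate partner that brings ATR to the DNA, did not pass the test. It stood at 28.6 and 32.5 CPM with DMSO and 27.4 and 25.5 CPM with dBET1 (log2 fold change -0.21, edgeR adjusted p = 0.157), and without DMSO replicate 1 it fell (-0.32, edgeR adjusted p = 0.0319). TREX1 shares 26.7% of the annotated exon bases of ATRIP on the same strand, so the counts of the pair can be mixed.

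TP53BP1, whose product shields broken ends from resection, stood at 47 and 42.2 CPM with DMSO and 67.2 and 72.4 CPM with dBET1 and rose from a mean ± SD of 44.6 ± 3.42 CPM to 69.8 ± 3.65 CPM over 2 libraries each (log2 fold change 0.65, standard error 0.096, edgeR adjusted p = 0.000931). TUBGCP4 on the opposite strand overlaps 28.8% of its exon bases and had fewer counts with dBET1 (1341 and 1335) than with DMSO (2539 and 1959). MDC1, the adaptor that binds phosphorylated H2AX and recruits further ATM, stood at 24.5 and 23.1 CPM with DMSO and 33.6 and 31.4 CPM with dBET1 and rose (log2 fold change 0.45, standard error 0.107, edgeR adjusted p = 0.00868). Without dBET1 replicate 1 this call was lost, at a log2 fold change of 0.39 (edgeR adjusted p = 0.106).

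CHEK2, the checkpoint kinase that ATM activates, fell. It stood at 25.9 and 23.5 CPM with DMSO and 15 and 14.1 CPM with dBET1, with no overlap (log2 fold change -0.77, standard error 0.126, edgeR adjusted p = 0.0015). CHEK1, the kinase that ATR activates, stood at 113 and 118 CPM with DMSO and 106 and 102 CPM with dBET1 (log2 fold change -0.15, edgeR adjusted p = 0.122) and passed the test only without DMSO replicate 1 (-0.21, edgeR adjusted p = 0.018). CLSPN, the adaptor between ATR and CHEK1, had DMSO libraries on either side of the dBET1 libraries, at 156 and 128 CPM with DMSO and 133 and 136 CPM with dBET1 (log2 fold change -0.08, edgeR adjusted p = 0.552). Without DMSO replicate 2 it fell (-0.24, edgeR adjusted p = 0.00621), and without DMSO replicate 1 its sign turned (0.05).

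Recombination genes went both ways. Of 11 genes 3 fell (RAD51C, RAD54L and XRCC2), 1 rose (BRCA2) and 7 did not pass the test. The share that fell (27.3%) was near that of all genes tested (27.6%), and the share that rose (9.09%) was below it (28%). The median log2 fold change of -0.21 moved to 0.004 when libraries were scaled to total counts only. BRCA2 (chromosome 13, 32315086 to 32400268, forward strand), a mediator of recombination on single-stranded DNA, stood at 25.1 and 20.4 CPM with DMSO and 50.4 and 46.8 CPM with dBET1. It rose from a mean ± SD of 22.8 ± 3.33 CPM to 48.6 ± 2.48 CPM over 2 libraries each, a ratio of 2.13 (log2 fold change 1.09, standard error 0.124, edgeR adjusted p = 0.000236). BRCA1, which promotes resection and binds PALB2, stood at 115 and 104 CPM with DMSO and 112 and 104 CPM with dBET1, a log2 fold change of -0.01 (edgeR adjusted p = 0.903), with a 95% interval of -0.18 to 0.16. PALB2, the bridge from BRCA1 to BRCA2, stood at 19.1 and 15.8 CPM with DMSO and 14.5 and 18.3 CPM with dBET1 (log2 fold change -0.09, edgeR adjusted p = 0.671). BARD1, the ubiquitin ligase partner of BRCA1, had 1 DMSO library well above the other 3 libraries, at 24 and 16 CPM with DMSO and 15.6 and 16.4 CPM with dBET1 (log2 fold change -0.32, edgeR adjusted p = 0.192), and fell only without DMSO replicate 2 (-0.61, edgeR adjusted p = 0.00377).

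RAD51B, RAD51C, RAD51D, XRCC2 and XRCC3 encode related proteins that act in complexes during recombination. RAD51C (chromosome 17, 58692573 to 58735611, forward strand), a subunit of more than 1 of these complexes, stood at 78.7 and 78.5 CPM with DMSO and 46.9 and 46.7 CPM with dBET1. Replicates were nearly equal, and it fell from a mean ± SD of 78.6 ± 0.187 CPM to 46.8 ± 0.165 CPM over 2 libraries each (log2 fold change -0.75, standard error 0.082, edgeR adjusted p = 0.000203). XRCC2 stood at 101 and 85.4 CPM with DMSO and 67.1 and 62.6 CPM with dBET1 and fell (log2 fold change -0.52, standard error 0.103, edgeR adjusted p = 0.00353). RAD51D (log2 fold change -0.21, edgeR adjusted p = 0.14), XRCC3 (-0.28, edgeR adjusted p = 0.117) and RAD51B (0.05, edgeR adjusted p = 0.895) did not pass the test. XRCC3 fell without DMSO replicate 1 (-0.49, edgeR adjusted p = 0.000962), and KLC1 on the opposite strand covers 76.7% of its exon bases. RAD51B was the least abundant of the 45 genes, at 4.35 and 2.99 CPM with DMSO and 4.0 and 3.6 CPM with dBET1.

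RAD54L, a motor protein that acts on DNA during strand invasion, stood at 79.2 and 89.3 CPM with DMSO and 43.8 and 48.2 CPM with dBET1. Its dBET1 libraries lay below the DMSO libraries, a ratio of 0.546 (log2 fold change -0.87, standard error 0.10, edgeR adjusted p = 0.000243). LRRC41 on the opposite strand overlaps 19.9% of the RAD54L exon bases. It held 4180 and 3671 counts with DMSO and 3639 and 3784 with dBET1. RAD52, a protein that anneals single strands, stood at 7.88 and 7.08 CPM with DMSO and 9.996 and 10.4 CPM with dBET1 without overlap, but missed the threshold (log2 fold change 0.45, edgeR adjusted p = 0.056). It passed with total counts only (0.65, edgeR adjusted p = 0.0135), with at least 10 counts in every sample (0.52, edgeR adjusted p = 0.032) and with counts divided by 2 (0.47, edgeR adjusted p = 0.0373).

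End resection genes fell in 3 of 6 cases (NBN, EXO1 and BLM), with 1 rise (MRE11), 2 genes that did not pass the test and a median of -0.25. The shares that fell and rose were 50% and 16.7%, against 27.6% and 28% of all genes tested. The subunits of the MRN complex, which holds broken ends and starts the resection, parted from each other. MRE11, its nuclease, stood at 49.5 and 42 CPM with DMSO and 64.7 and 66.7 CPM with dBET1 and rose (log2 fold change 0.52, standard error 0.104, edgeR adjusted p = 0.0037). RAD50, the long coiled-coil subunit, overlapped between groups at 136 and 116 CPM with DMSO and 124 and 121 CPM with dBET1 (log2 fold change -0.04, edgeR adjusted p = 0.739), and fell without DMSO replicate 2 (-0.18, edgeR adjusted p = 0.0268). Another gene annotated on the same strand covers 76.9% of the RAD50 exon bases. That gene has no entry of its own in the count table, so reads of its transcripts could have been counted as RAD50. NBN, which ties the complex to ATM, stood at 81.7 and 71.8 CPM with DMSO and 43.9 and 48.4 CPM with dBET1 and fell from a mean ± SD of 76.8 ± 6.99 CPM to 46.1 ± 3.16 CPM over 2 libraries each (log2 fold change -0.74, standard error 0.101, edgeR adjusted p = 0.000628).

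EXO1, the exonuclease of long-range resection, stood at 145 and 136 CPM with DMSO and 82.7 and 87.6 CPM with dBET1 and fell to a ratio of 0.606 (log2 fold change -0.72, standard error 0.080, edgeR adjusted p = 0.000213). BLM, a helicase of resection and of double Holliday junctions, stood at 44.1 and 43.1 CPM with DMSO and 35 and 35.1 CPM with dBET1 and fell by a small amount (log2 fold change -0.32, standard error 0.091, edgeR adjusted p = 0.0195). The BLM call was lost with total counts only (edgeR adjusted p = 0.378) and without dBET1 replicate 1 or 2 (edgeR adjusted p = 0.155 and 0.135). RBBP8, which encodes CtIP, the cofactor of MRE11, stood at 53.2 and 45.8 CPM with DMSO and 44.9 and 42.5 CPM with dBET1 (log2 fold change -0.18, edgeR adjusted p = 0.173), and fell without DMSO replicate 2 (-0.32, edgeR adjusted p = 0.0109).

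Of the 11 Fanconi genes 3 fell (FANCA, FANCD2 and FANCI), 1 rose (BRIP1) and 7 did not pass the test. The share that fell (27.3%) was near that of all genes tested (27.6%), and the share that rose (9.09%) was below it (28%). The median log2 fold change was -0.24, or -0.03 with total counts only. FANCD2 and FANCI encode the pair that is ubiquitinated when a crosslink is met. FANCD2 (chromosome 3, 10026370 to 10101932, forward strand) stood at 84.3 and 83.9 CPM with DMSO and 63.4 and 62.2 CPM with dBET1 and fell (log2 fold change -0.42, standard error 0.080, edgeR adjusted p = 0.00295). FANCI stood at 142 and 132 CPM with DMSO and 106 and 115 CPM with dBET1 and fell (log2 fold change -0.32, standard error 0.082, edgeR adjusted p = 0.0126). The ratios of dBET1 to DMSO were 0.747 and 0.804.

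In the core complex, which acts as the ubiquitin ligase, FANCA fell, at 112 and 127 CPM with DMSO and 83.6 and 97.1 CPM with dBET1 (log2 fold change -0.40, standard error 0.104, edgeR adjusted p = 0.0127). ZNF276 on the opposite strand overlaps 19.6% of the FANCA exon bases. With total counts only none of these 3 Fanconi genes passed the test (edgeR adjusted p = 0.0604 for FANCD2, 0.33 for FANCI and 0.149 for FANCA). FANCA was also short of it without dBET1 replicate 1 (edgeR adjusted p = 0.145), FANCD2 without dBET1 replicate 2 (0.0512) and FANCI without dBET1 replicate 1 or 2 (0.179 and 0.0591).

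The other core complex genes had log2 fold changes of 0.03 for FANCB, -0.25 for FANCC, -0.24 for FANCE, 0.28 for FANCF, -0.13 for FANCG, -0.25 for the ligase subunit FANCL and -0.24 for the translocase FANCM. Leaving out 1 library gave -0.44 to -0.09 for FANCE and 0.08 to 0.44 for FANCF, each range set by which dBET1 library was left out. FANCC came nearest to the threshold. It stood at 34 and 34.1 CPM with DMSO and 28.4 and 28.7 CPM with dBET1, with no overlap (edgeR adjusted p = 0.0583), and it passed with DESeq2 size factors (-0.27, edgeR adjusted p = 0.0468) and without DMSO replicate 1 or 2 (edgeR adjusted p = 0.0429 and 0.0387). FANCL and FANCM fell only without DMSO replicate 2 (edgeR adjusted p = 0.044 and 0.0119).

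BRIP1, the helicase that binds BRCA1 and is also called FANCJ, was the 1 Fanconi gene to rise. It stood at 32.9 and 24.4 CPM with DMSO and 44.3 and 43.6 CPM with dBET1, so both dBET1 libraries were above the DMSO libraries, which differed among themselves (log2 fold change 0.61, standard error 0.143, edgeR adjusted p = 0.00781). The size of the rise depended on the DMSO libraries, with 0.39 without DMSO replicate 2 and 0.82 without DMSO replicate 1. Without a count filter the call was lost (0.56, edgeR adjusted p = 0.072).

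Of the mismatch repair genes, MSH6, part of the dimer that recognizes single mispairs, stood at 232 and 232 CPM with DMSO and 181 and 168 CPM with dBET1 and fell (log2 fold change -0.41, standard error 0.074, edgeR adjusted p = 0.00241). It was short of the threshold with total counts only (-0.20, edgeR adjusted p = 0.0526) and without dBET1 replicate 2 (-0.37, edgeR adjusted p = 0.0548). FBXO11 on the opposite strand covers 22.7% of its exon bases. PMS2, the endonuclease of the pathway, stood at 56.1 and 48.5 CPM with DMSO and 49.1 and 44.9 CPM with dBET1 (log2 fold change -0.15, edgeR adjusted p = 0.25), and fell without DMSO replicate 2 (-0.28, edgeR adjusted p = 0.0203). PMS2 has near-identical pseudogene copies, of which PMS2CL alone held 791 to 937 counts per library against 1362 to 1830 for PMS2, so its value is uncertain.

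Genes of one complex were then set against each other within each library, which removes the scaling between libraries. The log2 ratio of MRE11 to RAD50 was -1.46 in both DMSO libraries, and with dBET1 it reached -0.94 and -0.86, a change of 0.56 against a pooled SD of 0.038. The ratio of NBN to RAD50 went from -0.74 and -0.69 to -1.5 and -1.32, a change of -0.70 (pooled SD 0.09). The ratio of ATR to ATRIP went from 1.06 and 0.66 to 1.64 and 1.72, a change of 0.82 (pooled SD 0.205). In these 3 pairs the groups did not overlap and the change was larger than the spread between replicates. With 2 libraries a group this is common: the groups did not overlap for 79.3% of all single genes tested. The share over gene pairs was not computed. RAD50 itself had a log2 fold change of -0.04, so the ratios to RAD50 mostly restate the changes of MRE11 and NBN.

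PRKDC to XRCC6 also shifted without overlap, from 0.88 and 0.59 to 1.11 and 1.12, a change of 0.38 (pooled SD 0.144). The ratio of the Ku subunits XRCC5 to XRCC6 was -0.19 and -0.39 with DMSO and -0.49 and -0.40 with dBET1. These groups did not overlap either, but only narrowly, and the change of -0.155 was little above the pooled SD of 0.111. FANCD2 to FANCI (-0.75 and -0.66 against -0.74 and -0.88) and BRCA1 to BARD1 (2.27 and 2.70 against 2.85 and 2.67) overlapped between the groups. With 2 libraries a group, an exact permutation test cannot pass the threshold, so none was run on these ratios.

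**Figure D4:**
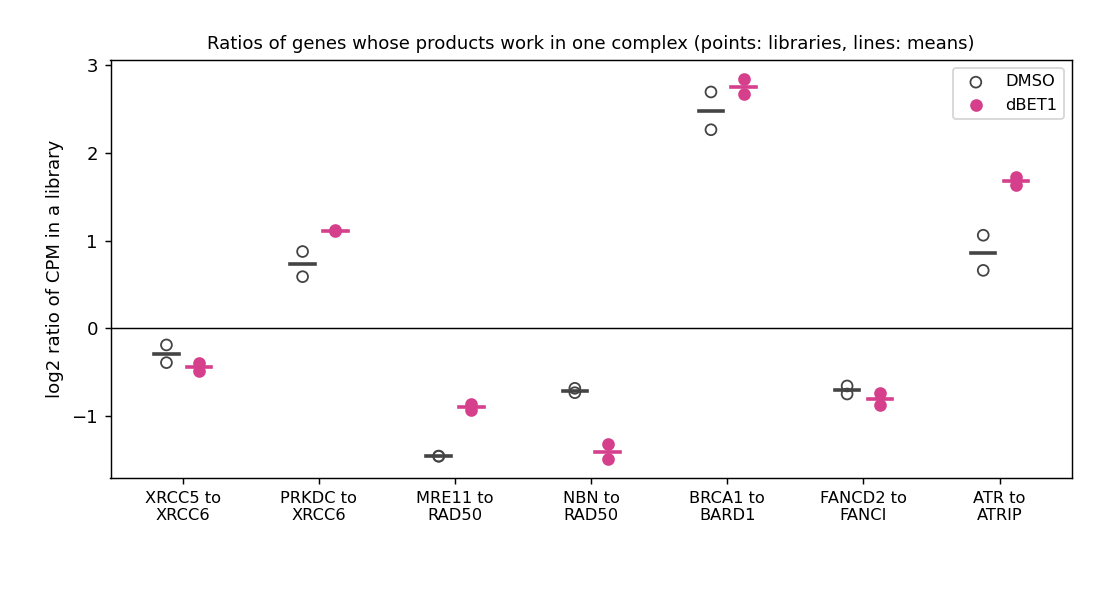
log2 ratio of the CPM of 2 genes in each library, for 7 pairs whose products work together. Points are libraries and lines are group means. MRE11 to RAD50, PRKDC to XRCC6 and ATR to ATRIP are higher with dBET1 and NBN to RAD50 is lower. XRCC5 to XRCC6 is narrowly lower without overlap, and FANCD2 to FANCI and BRCA1 to BARD1 overlap.

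Levels were compared between genes as CPM per kilobase of merged annotated exons, which overstates the length of genes with many rare isoforms. With DMSO the order began with XRCC6 (172 ± 2.73; SD, n = 2), XRCC5 (83.8 ± 6.96), PARP1 (53.8 ± 1.58), EXO1 (34 ± 1.46) and PRKDC (32.1 ± 4.0), of which EXO1 and PRKDC did not differ beyond their spread. CHEK1 (20.7 ± 0.624) and RAD54L (20.7 ± 1.75) followed and did not differ beyond their spread. The lowest were FANCB (1.0 ± 0.0993), FANCL (0.916 ± 0.0604), ATM (0.822 ± 0.153) and RAD51B (0.491 ± 0.129). With dBET1 the first 3 places were the same, at 90.4 ± 0.978, 39.4 ± 1.4 and 27.2 ± 0.292. BRCA2 went from place 38 to 28, ATM from 44 to 39 and MRE11 from 21 to 14, while NBN went from 27 to 34 and RAD51C from 25 to 31. Across the 45 genes the mean abundance and the log2 fold change had a Spearman's rho of -0.446, and across 12509 tested protein-coding genes -0.423. These are descriptions across genes that share the same 4 libraries.

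Other genes of the same pathways, from a list of 84 written with the earlier results of these data known, were tested in the same fit. Of 83 found and tested, 25 fell (30.1%, against 27.6% of all genes) and 23 rose (27.7%, against 28%), with a median log2 fold change of -0.05. The 5 falls with the smallest p were in CDC25A, the phosphatase that CHEK1 targets, CENPX and SHLD2, followed by RPA2 and RAD1. CENPX, a histone-fold partner of FANCM, fell from a mean ± SD of 133 ± 26.8 CPM to 35.3 ± 0.79 CPM over 2 libraries each (log2 fold change -1.91, standard error 0.137, edgeR adjusted p = 3.17e-05). SHLD2, a shieldin subunit that acts after TP53BP1, fell from a mean ± SD of 75.9 ± 6.1 CPM to 30.8 ± 0.611 CPM over 2 libraries each (log2 fold change -1.30, edgeR adjusted p = 3.52e-05). CDC25A fell from a mean ± SD of 114 ± 2.3 CPM to 48.8 ± 1.71 CPM over 2 libraries each (log2 fold change -1.23, edgeR adjusted p = 2.39e-05). RPA2, which coats single-stranded DNA, and RAD1, of the 9-1-1 clamp, had log2 fold changes of -0.80 (edgeR adjusted p = 0.0002) and -0.77 (edgeR adjusted p = 0.000218).

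The 5 rises with the smallest p were in SLX4, EME1, POLM, ABRAXAS1 and RMI2. SLX4, the scaffold of structure-specific nucleases, rose from a mean ± SD of 26 ± 0.307 CPM to 63.1 ± 0.434 CPM over 2 libraries each (log2 fold change 1.28, standard error 0.089, edgeR adjusted p = 2.78e-05), and EME1, the partner of the nuclease MUS81, rose from a mean ± SD of 14.3 ± 0.745 CPM to 40.3 ± 2.68 CPM over 2 libraries each (log2 fold change 1.49, standard error 0.115, edgeR adjusted p = 4.12e-05). POLM, a polymerase of end joining, had a log2 fold change of 1.17 (edgeR adjusted p = 0.000222), ABRAXAS1, a subunit of a BRCA1 complex, 0.93 (edgeR adjusted p = 0.000372), and RMI2, which works with BLM, 0.92 (edgeR adjusted p = 0.000389). By role, 12 of 28 tested recombination genes of this list rose and 6 fell, and 6 of 15 Fanconi genes fell and 1 rose. Of 25 signalling genes 9 fell and 7 rose, and of 12 end-joining genes 4 fell and 3 rose. Of all genes tested 27.6% fell and 28% rose. None of 3 mismatch repair genes passed edgeR's test (1, MLH3, had an unadjusted p of 0.0333, and 0 passed with DESeq2 at an adjusted p under 0.05).

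Position had no part in the choice of the genes either. In GENCODE release 44 on hg38, 18 of the 45 genes had a gene on the opposite strand whose start lay within 1 kb upstream, and 17 of these 19 neighbours were tested. Only the outermost annotated start of each gene was used, so neighbours of inner starts are missed. For MSH6, RBBP8 and FANCC, among others, it lies far from the RefSeq starts used above. A gene and its neighbour fell together in 2 cases. PRKDC shares its start region with MCM4, a subunit of the replicative helicase, whose start is 7 bp away and which fell from a mean ± SD of 694 ± 28.1 CPM to 349 ± 5.48 CPM over 2 libraries each (log2 fold change -0.99, edgeR adjusted p = 2.87e-05). XRCC6 lies 120 bp from DESI1, which fell from a mean ± SD of 81.4 ± 3.38 CPM to 54.4 ± 1.07 CPM over 2 libraries each (log2 fold change -0.58, edgeR adjusted p = 0.000806).

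Other pairs parted. NPAT, the histone gene activator that starts 406 bp from ATM, stood at 32.4 and 27.2 CPM with DMSO and 31.5 and 32.4 CPM with dBET1 (log2 fold change 0.10, edgeR adjusted p = 0.504), while ATM rose. TEX14, 518 bp from RAD51C, rose (log2 fold change 1.18, edgeR adjusted p = 0.000354) where RAD51C fell. The other neighbour called in the direction opposite to its partner was the low-count CRTC3-AS1 beside BLM. In 5 pairs only the gene of the set passed the test, in 4 only the neighbour and in 4 neither. Of all genes tested 27.6% fell and 28% rose. How often unrelated genes would pair in these ways was not computed, so the counts are a description only. Neighbours whose start lay inside the gene of the set were left out of these counts. Among them TUBB, which starts just inside MDC1, fell (log2 fold change -1.13, edgeR adjusted p = 2.69e-05) where MDC1 rose. In the other pairs of that kind the genes did not both pass the test. NBR1, which starts 236 bp from the outermost annotated start of BRCA1, rose (log2 fold change 1.36, edgeR adjusted p = 3.50e-05) while BRCA1 did not pass the test.

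Further lists, written with earlier results known, are given beside these genes. Of all genes tested 27.6% fell and 28% rose. Of 12 replication genes (MCM7, MCM3 and TYMS the most abundant) 11 fell and 0 rose, with a median of -0.79, and their summed level went from 4132 and 4195 to 2414 and 2374 CPM. Of 12 mitosis genes (TOP2A, CDC20 and CCNB1 the most abundant) 3 fell and 1 rose, with a median of 0.07. Of 15 tested genes that damage signalling commonly induces (XPC, GADD45A and TNFRSF10B the most abundant), 10 rose and 2 fell, with a median of 0.51. The 2 that fell were AEN (log2 fold change -1.27, edgeR adjusted p = 2.77e-05) and FDXR (-0.57, edgeR adjusted p = 0.00548). CDKN1A rose from a mean ± SD of 1.4 ± 0.0782 CPM to 13 ± 1.01 CPM over 2 libraries each (log2 fold change 3.21, edgeR adjusted p = 2.21e-05) and BTG2 from a mean ± SD of 14.9 ± 0.918 CPM to 109 ± 7.62 CPM over 2 libraries each (2.87, edgeR adjusted p = 3.13e-06), both chosen after their values were seen. The part of cell cycle position in the changes of the 45 genes was not tested.

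The replicates with DMSO were less alike than those with dBET1. Over the 45 genes DMSO replicate 1 was above replicate 2 in 33 cases, with a median log2 difference of 0.14, against a median of 0 over all tested genes. Between the dBET1 replicates that median was 0.02. Without DMSO replicate 2 the number of the 45 genes that fell was 24, without DMSO replicate 1 it was 19, and without a dBET1 library 12 or 11.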

How the data were processed

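RNA-seq gene counts of 4 libraries labelled NB4 were used, 2 with DMSO and 2 with 8 μM dBET1 for 24 h. The authors deposited whole-number counts per Ensembl gene, not normalized. The submitters' processing notes name HISAT2 2.2.0 for alignment, and the study's methods name StringTie. The strand setting of the counting is not given in the sources used here. Columns named NC were read as the DMSO libraries by replicate number. Symbols, coordinates and exon lengths were taken from GENCODE release 44 on hg38.

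Counts were filtered with filterByExpr, scaled by TMM and tested with edgeR 4.0.16 (R 4.3.3), using glmQLFit and glmQLFTest with group as the only term. P-values were adjusted by Benjamini-Hochberg over all 17971 genes tested, with a threshold of 0.05. On simulated data the fit recovered 93.8% of genes changed by 1.5 on the log2 scale and 61.8% of those changed by 0.75. False calls averaged 8.8. Few genes were changed there, equally in both directions, so these data do not test the scaling where 55.6% of genes pass. CPM were computed from the counts and the TMM-normalized library sizes. Alternatives were total-count scaling, DESeq2 1.42.0 and its size factors, other count filters, a replicate block, counts divided by 2 and leaving out each library. The replicates of a group differed by more than sampling noise.

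All 45 members are named. Of the other pathway genes, those with the 5 smallest p in each direction are named, and of context and marker lists up to 3 by abundance, besides the divergent neighbours of members. CDKN1A, BTG2, AEN, FDXR, MLH3 and the markers at 0 fall outside this rule and were chosen after their values were seen. The members and lists were chosen with earlier results of these data known.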

Additional observations from a re-analysis of the deposited data

How the results depend on the processing

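With 2 libraries in a group, small changes could be missed, and calls rested on single libraries in several genes. Of the 55 named genes, 27 kept their direction and their side of the threshold under all 11 alternatives and 14 turned sign under at least 1. The cause of these shifts was not tested, except that leaving out a library lowers the sample number. The number of the 45 genes that fell was 15 and ranged from 11 to 24 when 1 library was left out (24 without DMSO replicate 2), and was 1 with an absolute log2 fold change above 1. The number that rose was 8, with a range of 6 to 7, and 2 above that limit. Of the other pathway genes 23 rose, 15 without a count filter and 14 to 25 without 1 library (14 without dBET1 replicate 1), and 25 fell (20 to 31).

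With total counts only, the median log2 fold change was 0.004 for all 45 genes and for recombination, -0.039 for end resection, -0.032 for Fanconi, 0.396 for kinases, -0.347 for end joining and -0.071 for mismatch repair. Without a count filter it was -0.261 for all 45 and -0.296 for Fanconi. With at least 10 counts in every sample it was -0.136 for all 45 and for recombination and -0.171 for Fanconi. Without 1 library the medians ranged from -0.248 to -0.096 for all 45, -0.289 to -0.025 for recombination, -0.338 to -0.211 for end resection, -0.28 to -0.178 for Fanconi, 0.115 to 0.257 for kinases, -0.709 to -0.45 for end joining and -0.361 to -0.237 for mismatch repair.

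With total counts only, the log2 fold change turned to 0.195 for BRCA1, 0.119 for PALB2, 0.004 for RAD51D, 0.027 for RBBP8, 0.168 for RAD50, 0.079 for FANCG, 0.003 for ATRIP, 0.056 for CHEK1 and PMS2, 0.132 for CLSPN and 0.113 for POLQ. With at least 10 counts in every sample it was 0.056 for BRCA1 and 0.031 for RAD50, with counts divided by 2 it was 0.018 for BRCA1, with DESeq2 -0.001 for FANCB, and without a count filter -0.021 for FANCB and -0.009 for RAD51B. Leaving out 1 library gave -0.118 to 0.036 for BRCA1, -0.281 to 0.062 for PALB2, -0.226 to 0.319 for RAD51B, -0.184 to 0.056 for RAD50, -0.094 to 0.113 for FANCB, -0.241 to 0.046 for CLSPN, -0.039 to 0.169 for XRCC4 and -0.278 to 0.049 for POLQ.

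The replicate numbers pair only 2 libraries a group, and the deviations of same-numbered libraries had a correlation of -0.00753, so the numbers are not shown to pair them. With a replicate block 15 of the 45 genes fell and 8 rose, and the block changed 0 of the 55 calls.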
